A study of Terfezia claveryi
Helianthemum almeriense and Terfezia claveryi with 9 samples.

Results

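The mycorrhizal desert truffle Terfezia claveryi under water shortage was compared with the same species growing free in culture. The comparison rests on 6 of the 9 libraries of the series, 3 from drought-stressed mycorrhizal roots and 3 from cultured mycelium, and covers all 12765 gene models that the files list. Cultures were vegetative mycelium of strain T7, grown in MMNo medium in shaken flasks (75 rpm) in the dark at 23 °C for 3 months. Drought roots were secondary and tertiary roots of Helianthemum almeriense plants that had been given T. claveryi spores 3 months before watering was cut; soil moisture was brought down to 40% and kept there until shoot water potential lay below -2 MPa. Each sample gave RNA from 100 mg of tissue, sequenced as pairs of 75-base reads, and the labels call the 3 libraries of a group biological replicates. The cultures are 1 strain, whereas the labels do not give the genotypes that grew from the spores. Symbiosis, host, drought and fungal source material therefore differ together between the groups and cannot be told apart. Libraries of uninoculated plants were not analysed here, so plant reads that may have been assigned to fungal gene models were not counted.

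Desert truffles are ascomycetes that fruit underground in dry land and live on the roots of rockrose shrubs such as Helianthemum. The association is called ectendomycorrhizal because hyphae grow both between and inside root cells, with sugars passing to the fungus and mineral nutrients and water to the plant. Mycorrhizal fungi are generally known to change transcripts for transporters, cell wall enzymes and small secreted proteins on entering a root. The files name gene models only by Tercla1 identifiers and pair them with no product, so no gene model is given a function here and marker transcripts of hyphae or root could not be looked up. Gene models are described by level, size of change, length and spread.

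Libraries held 15855363 to 31854784 total gene reads in cultures and 3493361 to 5470044 fungal reads in drought roots, a 6.21-fold difference in group means. Depth was tied to group. Drought-root libraries were made from root tissue, and the number of all reads sequenced per library was not used here. Plant RNA in the tissue, sequencing depth, number of fungal cells and RNA per fungal cell cannot be told apart in such totals. Every level below is therefore relative to the fungal reads of its library. CPM is the read count of a gene model scaled to 1000000 of these reads, and RPKM, the authors' value, is in addition divided by gene length in kilobases.

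One library stood apart. Drought replicate 2 was at least 2-fold above both other drought libraries for 748 of 9001 tested gene models and at least 2-fold below both for 1196 (log2 of CPM + 1). In drought replicates 1 and 3 these numbers were 178 and 194, and 237 and 202. At 4-fold, drought replicate 2 was above both others for 93 gene models and below both for 401. In the cultures, replicate 1 deviated most, with 57 gene models above and 165 below both others at 2-fold. The median SD of log2(CPM + 1) was 0.15 in cultures and 0.44 in drought roots, and 0.20 in drought roots without replicate 2. The biological coefficient of variation, edgeR's estimate of spread beyond counting error, was 17.8% in cultures and 48.8% in drought roots, and 24.8% without drought replicate 2. Without culture replicate 1 the median SD in cultures was 0.074 and their coefficient of variation 8.03%.

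**Figure D1:**
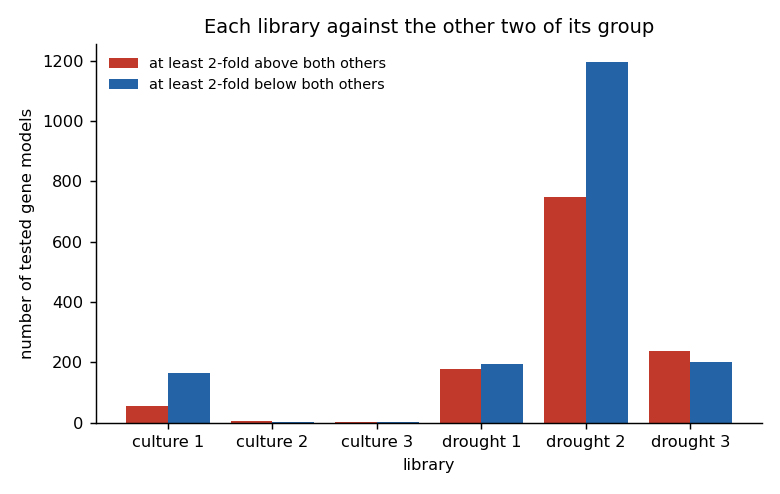
Number of the 9001 tested gene models (vertical axis) for which a library (horizontal axis) lay at least 2-fold above (red) or below (blue) both other libraries of its group, on log2(CPM + 1). Drought replicate 2 has 748 above and 1196 below, more than any other of the 6 libraries.

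Between a culture and a drought root, 37.8 to 40.0% of fungal reads would have to be moved to other gene models to turn one profile into the other, over the 9 pairs of libraries. Within cultures this was 3.40 to 8.62% and within drought roots 7.50 to 22.9%, over 3 pairs each. The least distant drought pair was the one without replicate 2. The difference between the groups thus exceeded the difference between replicates in every pair. Group means differed by 37.6% of the reads. The gain was carried by 132 gene models for its upper 50% and the loss by 144. The single largest gain was 3.37% of all gain and the single largest loss 6.69% of all loss, so the change was spread over many gene models. Without drought replicate 2 the means differed by 38.9%, with 115 and 147 gene models.

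Of the 12765 gene models, 11172 had a read in the 6 libraries and 9001 passed the filter on low counts. In the edgeR quasi-likelihood test, 1926 gene models were higher in drought roots (21.4% of those tested) and 1958 were lower (21.8%), together 43.2%, at a Benjamini-Hochberg adjusted p under 0.05. Reads unique to the model made up at least 90% for 1776 of the higher and 1818 of the lower gene models. Another 82 and 87 had under 50%, and their levels are uncertain. Of all 9001 tested, 8269 had at least 90% and 417 under 50%. The median log2 fold change over all tested gene models was -0.05, a value that the scaling by TMM holds near 0. When culture replicates 2 and 3 were left out in turn, the higher gene models numbered 1249 and 1246 and the lower 1267 and 1248; without drought replicate 2 there were 2707 higher and 2994 lower. Of the gene models called with all libraries, 1906 of the 1926 and 1955 of the 1958 were also called in the same direction without drought replicate 2, and 0 in the opposite direction.

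A test against 0 does not say how large a change is. The fold itself was therefore tested against 2 with edgeR's glmTreat. More than 2-fold higher were 919 gene models (10.2%) and more than 2-fold lower 779 (8.65%), at an adjusted p under 0.05. Those lower numbered 491, 443 and 453 without culture replicates 1, 2 and 3, and 1179 without drought replicate 2. The middle 50% of the 919 had log2 fold changes from 2.17 to 4.91, with a median of 3.05. The middle 50% of the 779 ran from -5.69 to -1.92, with a median of -2.72. A further 2133 gene models (23.7%) had a 95% interval of the log2 fold change wholly inside -1 to 1, called within 2-fold here. These intervals are not adjusted for the number of gene models tested. They also assume the same spread in both groups, as do the tests against 0 and against 2-fold, although the spread differed. Of the 2133, 194 also passed the test against 0. When culture replicates 2 and 3 were left out in turn, the gene models within 2-fold numbered 1404 and 1390. The other 5170 gene models (57.4%) were settled neither way as to 2-fold. They include gene models called higher or lower in the test against 0.

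**Figure D2:**
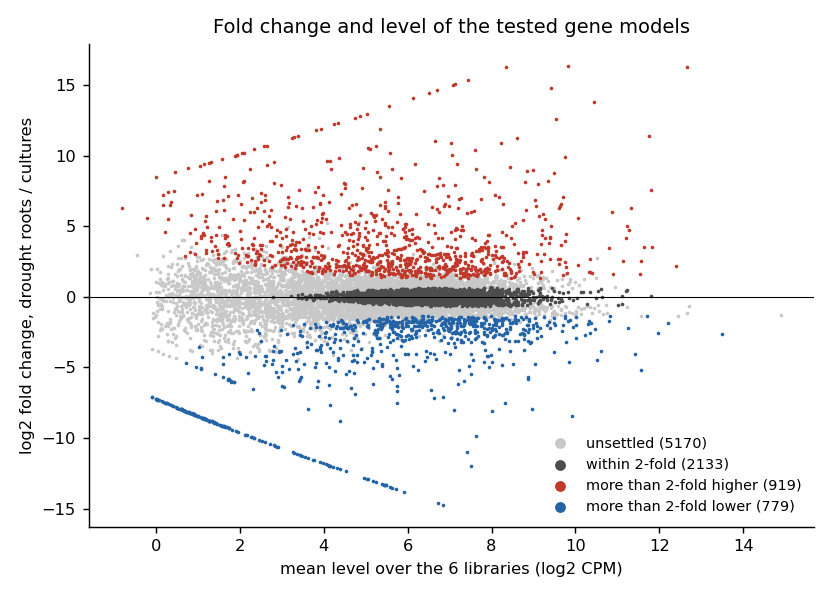
Log2 fold change of drought roots over cultures (vertical axis) against the mean level over the 6 libraries in log2 CPM (horizontal axis), 1 point per tested gene model. Red and blue points changed by more than 2-fold (919 and 779), and dark points were within 2-fold (2133). Light points were settled neither way as to 2-fold (5170) and include gene models that passed the test against 0. The straight rows at the upper and lower edge are gene models with 0 or few reads in a group. Their fitted fold depends on the prior count.

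The gene models that rose more than 2-fold took 3.17, 3.43 and 3.47% of fungal reads in cultures 1 to 3. In drought replicates 1 to 3 they took 29.6, 26.3 and 28.6%. The share was thus low in all cultures and high in all drought roots, drought replicate 2 included. The gene models that fell more than 2-fold took 22.8 ± 0.268% of reads in cultures and 4.51 ± 0.0223% under drought (SD over the 3 libraries of each). The 2133 gene models within 2-fold took 28.1 ± 0.104% in cultures and 28.2 ± 1.36% in drought roots. All these shares describe gene models selected on the same libraries. Those within 2-fold had a median length of 1617 bases against 1284 for the higher and 1221 for the lower. Their median level was a log2 CPM of 6.42, against 5.56 and 5.76.

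**Figure D3:**
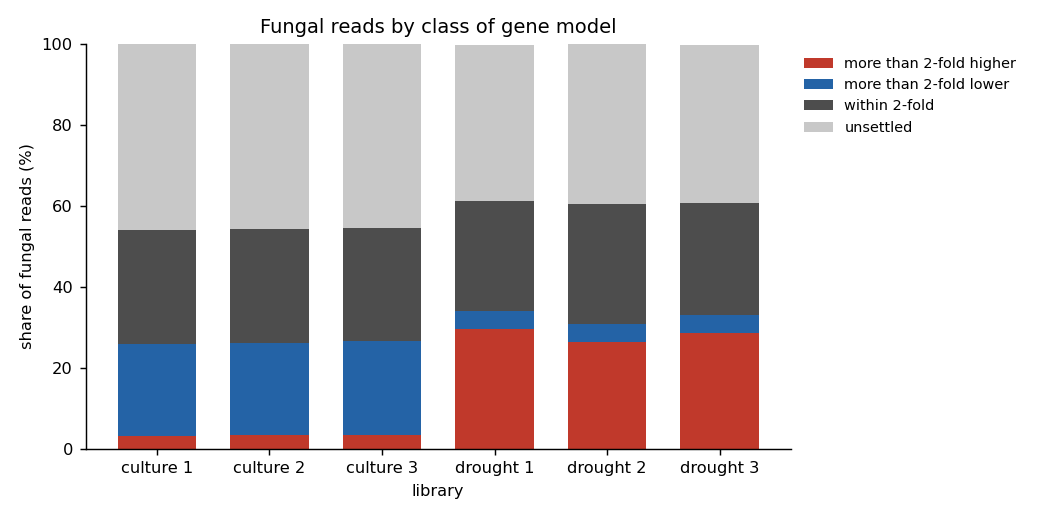
Share of fungal reads in percent (vertical axis) taken in each library (horizontal axis) by gene models more than 2-fold higher (red), more than 2-fold lower (blue), within 2-fold (dark) and settled neither way (light). Gene models more than 2-fold higher take 3.17 to 3.47% of reads in cultures and 26.3 to 29.6% in drought roots; the class was chosen on these libraries.

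What could be resolved moved with level. In the lowest sixth of tested gene models by mean level, 14.5% were higher and 13.7% lower in drought roots, and 0.0666% were within 2-fold. In the highest sixth, 28.9% were higher, 34.4% lower and 33.5% within 2-fold. The share within 2-fold was largest in the sixth just below, at 41.7%. The share changed by more than 2-fold did not move steadily with level. More than 2-fold higher were 9.06% in the lowest sixth, 14.1% in the highest and 8.53 to 11.1% between them. More than 2-fold lower were 10.3% in the lowest, 13.7% in the highest and 6.27 to 7.60% between them. Many of the very large fitted folds belonged to gene models that were nearly unread in a group. At least 64-fold lower were 186 gene models, of which 157 had 0 reads in all drought libraries together and 0 had as many as 300. At least 64-fold higher were 166, of which 34 had 0 reads in the cultures, 81 had at most 10 and 14 had at least 300. The 186 were 290, 281 and 333 without drought replicates 1, 2 and 3. With all libraries thinned to 1 depth, 96 gene models were at least 64-fold lower and 149 at least 64-fold higher, so the order of both numbers turned.

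Gene models with ample reads on both sides were looked at alone. After all libraries were thinned to 3493361 reads, 3965 gene models had at least 100 reads in each of the 6, a filter chosen after the data were seen. Of these, 848 were higher (21.4%) and 975 lower (24.6%) in the fit on all reads, and 907 higher and 874 lower in the fit on the thinned reads. The lean towards falls thus turned with depth. The 848 were 483 and 494 without culture replicates 2 and 3. At least 4-fold higher were 123 and at least 4-fold lower 109. At least 16-fold there were 15 and 4, against 326 and 290 among all tested gene models. The 290 became 442 without drought replicate 3. The filter itself removes gene models with few reads on their low side, so it limits the folds that can remain and the smaller numbers are no result.

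The 2 largest rises and the 2 largest falls are given for gene models with at least 100 reads in each of the 6 libraries, at least 90% of reads unique to the model in each group, and no overlap between groups. Eligible were 1141 higher and 958 lower gene models. The largest rise was that of jgi|Tercla1|1275873|, a model of 318 bases. Its RPKM was 179.9, 92.9 and 82.6 in cultures 1 to 3 and 31208, 4036 and 30391 in drought replicates 1 to 3. Within the drought roots, replicates 1 and 3 were close and replicate 2 was 7.73-fold below drought replicate 1. The log2 fold change was 7.56 ± 0.95 (SE, edgeR adjusted p = 0.000938), and 8.03 without drought replicate 2. By mean RPKM it ranked 1298 in cultures and 2 in drought roots. Its lowest drought value was still 22.4-fold above its highest culture value.

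The next rise was that of jgi|Tercla1|1334901|, of 866 bases. RPKM was 19.3, 10.7 and 12.5 in cultures 1 to 3 and 2660, 620 and 2360 in drought replicates 1 to 3. Replicate 2 was again the lowest drought library, 4.29-fold below replicate 1. The log2 fold change was 7.07 ± 0.70 (SE, edgeR adjusted p = 0.000345). It ranked 6191 in cultures and 46 in drought roots.

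The largest fall was that of jgi|Tercla1|1139123|, of 651 bases, which was the fourth most abundant model of the cultures by RPKM and ranked 532 in drought roots. RPKM was 9599, 7228 and 10335 in cultures 1 to 3 and 240.7, 330.7 and 190.4 in drought replicates 1 to 3. The lowest culture was 21.9-fold above the highest drought library. The log2 fold change was -5.18 ± 0.28 (SE, edgeR adjusted p = 4.09e-05). For jgi|Tercla1|1211419|, of 725 bases, RPKM was 1968, 2574 and 2767 in cultures 1 to 3 and 105.9, 135.8 and 58.4 in drought replicates 1 to 3. Its log2 fold change was -4.63 ± 0.34 (SE, edgeR adjusted p = 0.00012), and its rank went from 24 to 1566. For both falls drought replicate 2 was the highest of the drought libraries, and thus the nearest to the cultures, as it was for both rises.

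**Figure D4:**
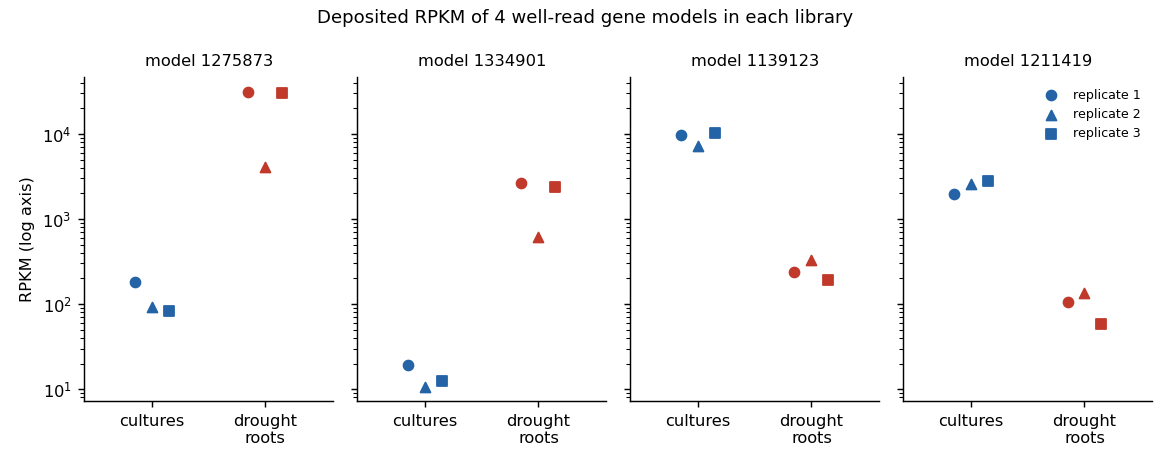
Deposited RPKM on a log axis (vertical) of 4 gene models in each library of cultures (blue) and drought roots (red); circles, triangles and squares are replicates 1, 2 and 3. Models 1275873 and 1334901 are higher and 1139123 and 1211419 lower in drought roots, without overlap, which was a condition of the choice, and the triangle of drought replicate 2 is the drought point nearest to the cultures in all 4.

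That replicate could be examined further with gene models chosen without it. In the fit on the other 5 libraries, 2707 gene models were higher in drought roots, and in drought replicate 2 78.7% of them lay above all cultures, against 41.5% of all 9466 gene models tested there. Another 386 lay below all cultures. Of the 2994 called lower, 85.0% lay below all cultures in drought replicate 2, against 49.3% of all, and 271 lay above all cultures. When drought replicate 1 was held out instead, 97.4% of 1665 higher gene models and 97.9% of 1827 lower ones lay beyond all cultures on the called side in it, and 15 and 13 on the opposite side. For drought replicate 3 the shares were 95.4% of 1799 and 95.8% of 1978, and 33 and 29 were on the opposite side. Of all gene models tested in these fits, 40.3 and 49.2% lay above and below all cultures in drought replicate 1. In drought replicate 3 these shares were 41.4 and 48.0%. The held-out library took no part in the choice, but the cultures did. The median difference from the cultures of the 2707, on log2(CPM + 1), was 1.12 in drought replicate 2 and 1.38 in the mean of replicates 1 and 3, which chose them. Most of the gene models called without a drought library thus lay on the called side in that library, for drought replicate 2 as for the others, and drought replicate 2 had more exceptions. As it is 1 library, its departure was not tested, and the labels give no batch that could be set beside it.

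Part of the most abundant transcripts differed between the groups. By mean RPKM, the 10 leading gene models of drought roots and of cultures shared 2, the leading 50 shared 12, the leading 100 shared 37 and the leading 500 shared 251. The same gene model, of 575 bases, led both groups: its RPKM was 79087, 72664 and 74839 in cultures 1 to 3 and 27807, 46656 and 21080 in drought replicates 1 to 3. It was lower in every drought library, with a log2 fold change of -1.28 ± 0.27 (SE, edgeR adjusted p = 0.00873). Of the 50 leading models of drought roots, 25 ranked past 500 in cultures and 17 past 1000, with a median culture rank of 492.5. The 50 leading models of cultures had a median rank of 74.5 in drought roots, with 7 past 500 and 4 past 1000. The drought-root ranks come from a selection on high drought values and the culture ranks from a selection on high culture values, so the called changes among them, 40 higher and 6 lower among the former and 2 higher and 39 lower among the latter, are descriptions. The 6 were 2 to 4 without culture replicate 1, 2 or 3 or drought replicate 1 or 3, and the 2 were 4 without drought replicate 2.

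**Figure D5:**
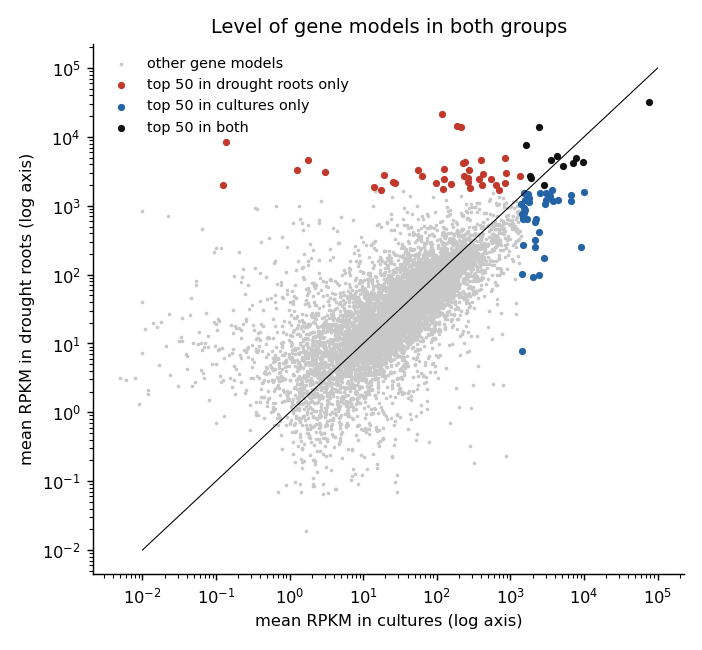
Mean RPKM of tested gene models in drought roots (vertical) against cultures (horizontal), both on log axes, with the line of equal level; gene models without a read in a group are not drawn. The leading 50 of drought roots (red, or black where shared) reach far to the left of the line, and 12 models are among the leading 50 of both groups.

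Leading models of drought roots differed in how evenly the drought libraries held them. The third in rank, of 354 bases, had an RPKM of 161, 212 and 184 in cultures 1 to 3 and 12133, 21147 and 10559 in drought replicates 1 to 3. The fifth, of 270 bases, went from 156, 249.7 and 225 to 13414, 16883 and 11305. Both were highest in drought replicate 2, unlike the 2 rises named earlier. The sixth, of 1497 bases, was the most uneven of the 10, at 12967, 462 and 11913 in drought replicates 1 to 3 and 0.337, 0 and 0.0668 in cultures. The fourth, of 366 bases, was even across drought roots at 14286, 14406 and 13698 but uneven across cultures at 685, 3657 and 3031. The eighth, of 231 bases, was at 4301, 4211 and 4233 in cultures and 6025, 4488 and 5557 in drought roots, and its log2 fold change of 0.33 ± 0.18 (SE) did not pass (edgeR adjusted p = 0.191). These models are named by rank alone, since their levels were seen when they were chosen.

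Gene length was set beside the calls. Among tested gene models of over 300 and up to 600 bases, 14.3% were higher and 21.9% lower in drought roots, with a median log2 CPM of 3.83. Among those of over 1800 and up to 3000 bases, 24.3% were higher and 21.2% lower, with a median log2 CPM of 6.15. Length and level moved together, so the 3000 gene models with the highest mean level were looked at alone, a choice made after the data were seen. There, 27.2% of 184 gene models of up to 600 bases were higher and 44.6% lower in the test against 0, against 26.0 and 28.7% of 2816 longer ones. In the test against 2-fold the order among short models was the reverse: 40 of the 184 rose more than 2-fold (21.7%) and 21 fell more than 2-fold (11.4%). Of the longer models, 302 rose (10.7%) and 298 fell (10.6%) by more than 2-fold. Without drought replicate 2, 41 short models rose and 41 fell, 22.3% each, against 13.9 and 13.7% of the longer ones; without culture replicate 2 the 21 were 14. The excess of rises over falls among short models was thus limited to the test against 2-fold and was not there without drought replicate 2. No test was made of these shares.

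Some gene models were read on 1 side alone. A group of 27 had 0 reads in all cultures and at least 10 in every drought library, at 5.54 to 664 CPM with a median of 32.5. The floor of 3 counts over the group is 0.0386 CPM in cultures. Set against it, the pooled reads of the 3 drought libraries, over their pooled total, made these models at least 149-fold to at least 16719-fold higher, with a median bound of 830. Together they took 2648, 2743 and 2621 CPM in drought replicates 1 to 3. Behind these near sums the members went both ways, since drought replicate 2 was the lowest drought library for 13 of the 27 and the highest for 10. Their lengths ran from 309 to 3633 bases. At least 90% of reads were unique for 24 of the 27, and under 10% for 1. In the other direction, 51 had 0 reads in drought roots and 100 or more in each culture, at 4.80 to 226 CPM in cultures with a median of 31.2. The floor over drought roots is 0.240 CPM, and against it the pooled culture reads made them at least 18.2-fold to at least 1046-fold lower, with a median bound of 129. Their sum was 2609, 2314 and 2245 CPM in cultures 1 to 3. At least 90% of reads were unique for 43 of the 51, and under 10% for 3. The 51 were 85 without culture replicate 1 and 77 without drought replicate 3. As every library must meet the rule, leaving 1 out can only keep or raise such numbers. All 27 and all 51 passed the filter and were called, as their choice requires, and the background shares of 21.4 and 21.8% add nothing to that. Whether a model without reads is present in the fungus of that group was not tested.

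The 2 numbers rest on unequal depth. With all libraries thinned to 3493361 reads and 10 reads asked on either side, a rule chosen after the data were seen, 53 gene models were read in drought roots alone and 74 in cultures alone. The 74 became 116 without drought replicate 3, and by this rule leaving out a library can only keep or raise the number.

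At equal depth, drought roots had fewer gene models with any read. Of 3493361 reads per library, 9610, 9828 and 9673 gene models were expected to have at least 1 read in cultures 1 to 3, and 9272, 8382 and 9303 in drought replicates 1 to 3. Every drought library lay below every culture, and replicate 2 lowest by far. Without drought replicate 2 the difference between the means was -416, against -718 with it. The means were 9704 ± 112 and 8986 ± 523 (SD, n = 3 each), and the two-sided exact permutation test gave p = 0.1, the lowest value possible with 3 libraries a group (Benjamini-Hochberg adjusted p = 0.3 over 3 such tests). For gene models with at least 10 reads after thinning, the numbers were 7977, 8060 and 8027 in cultures and 8165, 7914 and 8234 in drought roots. The groups then overlapped and the direction of the means turned (exact permutation p = 0.5, adjusted 0.5). The deficit of drought roots was thus in gene models with 1 to 9 reads. In evenness the groups overlapped: 50% of fungal reads were held by 570, 588 and 564 gene models in cultures and by 564, 631 and 606 in drought roots (exact permutation p = 0.4, adjusted 0.5).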

How the data were processed

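Each deposited file lists gene models with unique gene reads, total gene reads and RPKM. Per the submitters' processing notes, FastQC, Bowtie2 2.3.0 and SAMtools 1.7 are named, with their roles, the counting program, strand use and genome build not given in the sources used here. Total gene reads, raw counts as deposited per the file headers, were analysed, and unique gene reads served as an alternative. The RPKM deposited by the authors gave, with the counts, the same whole gene length in every library for all 11172 gene models with a read, within a relative tolerance of 1e-06. Depth was 15855363 to 31854784 reads per culture and 3493361 to 5470044 per drought root; reads carry no molecular identifiers, so floors of 3 counts cover counting error only.

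The 6 libraries were fitted with edgeR 4.0.16 in R 4.3.3 (filterByExpr, TMM, robust dispersion, quasi-likelihood F test, glmTreat); intervals came from the F statistic. Alternatives used DESeq2 1.42.0, limma 3.58.1, other scalings, filters and thresholds, thinning, the replicate number as a block, and leaving out each library. The fit was tested on simulated data. The comparison, the rule for named gene models and the lists were chosen with earlier results of these data known. With no annotation, the rule names the 2 largest rises and the 2 largest falls among well-read gene models, and lists by gene function were not applied. Well-watered libraries were not used.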

Additional observations from a re-analysis of the deposited data

How the results depend on the processing

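All 60 alternative values of the 4 named gene models kept direction and an adjusted p under 0.05, which their choice as large changes without overlap between groups makes likely and which says nothing of other gene models. Of 117 alternative values of the other results, 91 were within 1.5 times the reported ones or kept their direction, 24 moved further and 2 reversed. An adjusted p under 0.01 left 1200 gene models higher and 1118 lower, and testing against 4-fold left 442 higher and 268 lower. With at least 10 reads asked of each library, which leaves fewer genes tested, 780 were more than 2-fold higher and 483 lower. That filter removes gene models with few reads on their low side, so it limits the changes that can be counted. Gene models read in 1 group alone numbered 53 in drought roots and 22 in cultures after thinning, and 10 and 233 with the thresholds of 10 and 100 reads exchanged. Leaving out single libraries gave 1246 to 2707 higher and 1248 to 2994 lower, 616 to 1319 more than 2-fold higher and 443 to 1179 lower, 1390 to 2865 within 2-fold, 29 to 39 read in drought roots alone and 51 to 85 in cultures alone. The median SD of log2(CPM + 1) then ran from 0.074 to 0.15 in cultures and from 0.20 to 0.45 in drought roots. Numbers of gene models read in 1 group alone can only stay or grow when a library is left out, by their definition. The difference of drought roots from cultures in gene models that hold 50% of the reads, 26.3 with all gene models, was -10.7 without the most abundant model of each library (exact permutation p = 0.8; the cause was not tested). The difference in gene models detected was -718 at 1 read and 83.0 at 10 reads.

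No pairing by replicate number was seen: deviations of same-numbered libraries from their group means correlated at -0.00, -0.05 and -0.01. With 3 libraries a group, such values cannot show that no pairing exists. With the replicate number as a block, 1473 gene models were higher and 1552 lower, and 707 and 540 by more than 2-fold.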
